A study of Cricetiscus sungorus with 216 samples.

Results

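The gonadotropins are heterodimers made by the gonadotropes of the anterior pituitary gland. LH and FSH share the alpha subunit encoded by Cga, which thyrotrophs also use for TSH, and each takes its specificity from a beta subunit, encoded by Lhb and Fshb. Gnrhr encodes the receptor through which hypothalamic GnRH drives synthesis and release of both hormones. In seasonal breeders such as the Djungarian hamster this axis is held back in short photoperiod and returns as the animal becomes refractory to it.

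The 3 genes Lhb, Fshb and Gnrhr were taken by symbol from the pituitary table, which holds 22482 gene symbols, and were followed beside Cga of the same libraries. The pituitary gland was sequenced on the nanopore platform in adult male Djungarian hamsters of a colony aged 3–8 months. There were 6 hamsters in long photoperiod (LP, 16 h light and 8 h dark, labelled LD) and 6 after each of 4, 8, 12, 16, 20, 24, 28 and 32 weeks in short photoperiod (SP, 8 h light and 16 h dark, labelled SD), which gave 54 libraries in 9 groups of 6. The hamsters were unmodified and received no agent, and all were killed 2 to 4 h after lights on. The LP group was kept in LP throughout, and because it is a single group, photoperiod and time in the study cannot be told apart in a comparison with it. The SP weeks were also grouped as the study's phases of induction (early SP, 4 and 8 weeks, n = 12), maintenance (mid SP, 12, 16 and 20 weeks, n = 18) and recovery (late SP, 24, 28 and 32 weeks, n = 18).

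Values are CPM, that is, counts summed over isoforms and scaled to a common library size after correction by the trimmed mean of M-values (TMM). Library totals ranged from 29219 to 523544 counts (median 81120), and the group medians from 71355.5 to 97654.5. The pituitary table lists 4 isoforms of Lhb, 2 of Cga, 1 of Fshb and 4 of Gnrhr. All 4 Lhb isoforms had the same count in 40 of the 54 libraries, and their sum was 3.99 times the count of the highest isoform. A summed count of Lhb is therefore not a number of reads, and levels are compared within a gene only, since the lengths of the transcripts were not used. In bulk tissue, fewer gonadotropes and less RNA per gonadotrope cannot be told apart. As markers of the gland, Gh (growth hormone) and Prl (prolactin) were read in 54 of 54 libraries.

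Lhb was lowest after 8 weeks in SP, where it lay below LP. In LP the 6 libraries held 1232 CPM at the lowest, 2195 at the median and 2793 at the highest (mean 2004 ± 588, SD, n = 6). After 8 weeks in SP they held 687, 1033 and 1173 CPM (981 ± 176, SD, n = 6), and 6 of 6 libraries lay below every LP library. The mean fell by 1023 CPM, and p was the smallest that 6 against 6 libraries allow (exact permutation test, 2-sided, p = 0.00216, 0.0173 after Benjamini-Hochberg (BH) correction over the 8 weeks). Of 4335 gene symbols read in at least 27 of the 54 libraries, 2.75% had an exact p below 0.05 between these groups. The corrected p varied with the scaling and with the libraries kept. It was below 0.1 in each setting given here, but not below 0.05 in all of them. The number of libraries below every LP library was 5 of 6 with size factors of DESeq2 (exact permutation p = 0.0108, BH-corrected 0.0866), with library totals (0.00433, corrected 0.0346) and on the highest isoform (0.00433, corrected 0.0346). Without libraries under 50000 counts the corrected exact p was 0.0779 (4 of 4 libraries below every LP library), and without any 1 replicate number it was 0.0635, the smallest that 5 against 5 libraries allow over 8 weeks.

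After 4 weeks in SP, Lhb held 889 CPM at the lowest, 1218 at the median and 2133 at the highest (1305 ± 468, SD, n = 6), and 3 of 6 libraries lay below every LP library. This difference from LP did not hold after correction (exact permutation p = 0.0498, BH-corrected p = 0.199; 2.98% of the symbols were below 0.05). Without LP replicate 2, 3, 4 or 5 the p was between 0.0823 and 0.0931.

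From 12 weeks onward the groups overlapped LP broadly. In mid SP mean Lhb was 1624 ± 644 CPM at 12 weeks, 1650 ± 562 at 16 and 1886 ± 709 at 20 weeks (SD, n = 6 each). In late SP it was 2200.1 ± 736 CPM at 24 weeks, 1729 ± 829.2 at 28 and 2039 ± 660 at 32 weeks. The exact permutation p against LP was between 0.292 and 0.924 at these 6 weeks. In order, the group means ran from 8 weeks through 4, 12, 16, 28 and 20 weeks to LP, 32 and 24 weeks. Of the 8 steps between neighbours in that order, 7 were smaller than the SD of either neighbour, the exception being the 324 CPM between 8 and 4 weeks.

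**Figure D1:**
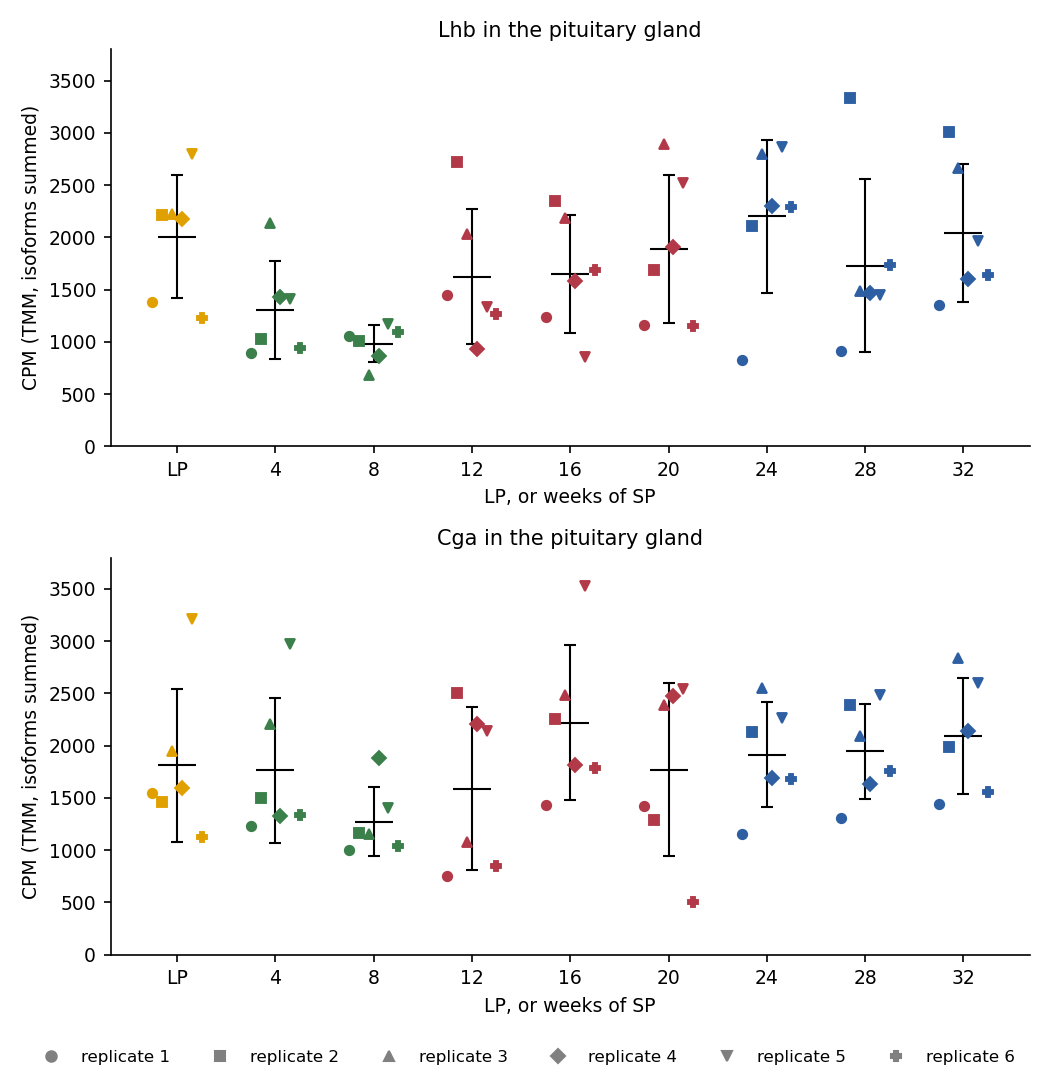
CPM of Lhb (top) and Cga (bottom) in each pituitary library, by LP or weeks of SP; symbols mark the replicate number, colours the phase, and black bars the mean ± SD of 6 libraries. All 6 Lhb values at 8 weeks lie below the lowest LP value of 1232 CPM, whereas Cga at 8 weeks overlaps LP.

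The fit across all genes gave the same direction for Lhb but did not pass its threshold. The log2 fold change of early SP against LP was -0.82 (SE 0.31; edgeR, unadjusted p = 0.0102, adjusted p = 0.446; DESeq2, unadjusted p = 0.000442, adjusted p = 1). In that edgeR test 0.0845% of the 22482 symbols passed an FDR of 0.1, 19 in all and each lower in early SP. The log2 fold change of Lhb against LP was -0.22 (SE 0.30) in mid SP and -0.02 (SE 0.30) in late SP, and 0.21 (SE 0.21) for late against mid SP. Over the 9 groups the adjusted p of Lhb was 0.43. Of Lhb, Fshb, Gnrhr and Cga, 0 passed that F-test with edgeR, in which 9.56% of all symbols did, and for 0 of them was the unadjusted p below 0.05. With DESeq2 0 passed and 1, Lhb, had an unadjusted p below 0.05 (0.00165). In that DESeq2 test 2 of 22274 symbols passed and 109 had an unadjusted p below 0.05. Among all symbols 0.44% passed for mid SP, 0.623% for late SP and 0.302% for late against mid SP.

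Within SP, mean Lhb was higher in late than in early SP. Late SP held 1989 ± 728 CPM (SD, n = 18) against 1143 ± 377 (SD, n = 12) in early SP, which is 1.74-fold higher. A comparison of early and late SP added after the values had been seen gave p = 0.00114 for Lhb (permutation test, 100000 resamples, BH-corrected over 4 genes 0.00456). Because the comparison was picked from the same values, this p is not an independent test of a rise. The share of all symbols at such a p was not computed. The ranges overlapped, from 687 to 2133 CPM in early SP and from 829.5 to 3330.4 CPM in late SP. In the same comparison Cga was 1.31-fold higher (permutation p = 0.0244, corrected 0.0325), a call that was lost with library totals in place of TMM (permutation p = 0.102).

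The level of Lhb also moved with replicate number, and so did depth. Replicates 2 and 3 had median totals of 230630 and 154041 counts and mean Lhb of 2162 and 2123 CPM (n = 9 each), whereas replicates 1, 4, 5 and 6 had median totals of 56018 to 81724 counts and mean Lhb of 1141 to 1817 CPM. Within replicate numbers, mean log2 CPM of Lhb in early SP was below LP in 6 of 6, by between -1.11 and -0.28. For mid SP it was below LP in 4 of 6 and for late SP in 3 of 6.

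Fshb, the beta subunit of FSH, was sparse at this depth, with 108 counts over the 54 libraries. It was read in 3 of 6 LP libraries, in 4 of 12 of early SP, in 15 of 18 of mid SP and in 14 of 18 of late SP, and all 6 libraries held a count at 16 and at 32 weeks. The 18 libraries at 0 had a median total of 60113 counts and the 36 others 96951.5. A count of 0 in them allows up to between 16.6 and 81.9 CPM (3 counts per library, counting error only), which covers most of the levels read elsewhere.

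In LP, Fshb ran from 0 through a median of 4.80 to 20.3 CPM (7.09 ± 8.52, SD, n = 6). At 16 weeks it ran from 12.1 through 24.2 to 38.1 CPM (24.0 ± 9.40), and 3 of 6 libraries lay above every LP library. At 28 weeks the range was 0 to 52.3 CPM (median 26.5, mean 27.3 ± 19.7) and at 32 weeks 11.02 to 69.1 CPM (median 17.6, mean 27.6 ± 22.7, SD, n = 6 each), so that both groups overlapped LP. The exact permutation p against LP was 0.0173 for 16, 0.0433 for 28 and 0.0303 for 32 weeks, and 0.115 for each after BH correction over the 8 weeks. Leaving out LP replicate 2, 3, 4, 5 or 6 moved it above 0.05 for 28 weeks (0.0628 to 0.0823) and for 32 weeks (0.0563 to 0.0887), and at 32 weeks replicate 3 held 16 of the 25 counts. Of the symbols read in at least 27 libraries, 4.54%, 3.69% and 3.48% had an exact p below 0.05 at these weeks.

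In early SP mean Fshb was 8.79 ± 13.6 CPM at 4 and 5.66 ± 10.3 at 8 weeks (SD, n = 6 each). It was 10.3 ± 8.74 CPM at 12, 16.1 ± 14.2 at 20 and 13.2 ± 16.1 at 24 weeks, and the exact permutation p of these 5 weeks was between 0.221 and 0.848. In order the means ran from 8 weeks through LP, 4, 12, 24, 20, 16 and 28 weeks to 32 weeks, and each of the 8 steps was smaller than the SD of either neighbour. Pooled over a phase, the counts of Fshb were 5 in LP, 8 in early, 39 in mid and 56 in late SP. These correspond to 9.14 CPM (95% exact Poisson interval 2.97 to 21.3), 7.68 (3.32 to 15.1), 18.3 (13.02 to 25.03) and 27.2 (20.5 to 35.3), intervals that cover counting error only.

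The phases did not separate Fshb from LP in the fit across all genes. Its log2 fold change against LP was -0.11 (SE 0.78) in early, 0.91 (SE 0.84) in mid and 1.34 (SE 0.84) in late SP, and the adjusted p (edgeR) was 0.803 or more. In the added comparison of late with early SP, Fshb was 3.14-fold higher (22.7 ± 19.7 against 7.23 ± 11.6 CPM, SD, n = 18 and 12; permutation p = 0.0207, corrected 0.0325). That p was 0.0723, 0.0543 and 0.0562 without replicate 1, 2 or 3 of every group.

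**Figure D2:**
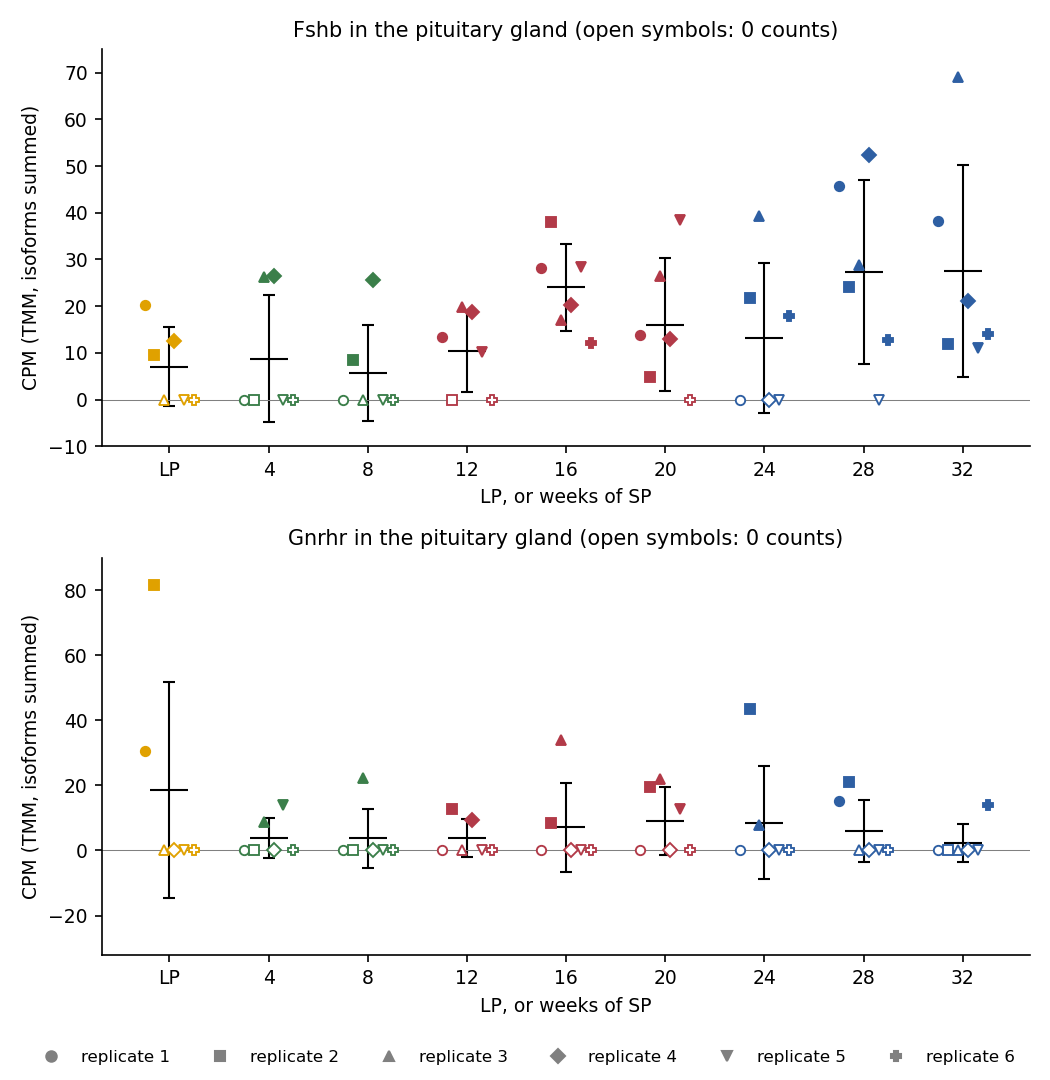
CPM of Fshb (top) and Gnrhr (bottom) in each pituitary library; open symbols are libraries with 0 counts, and black bars give the mean ± SD of 6 libraries. Fshb is at 0 in 18 libraries and read in all 6 at 16 and 32 weeks, and Gnrhr is at 0 in 37 libraries, with its highest value, 81.6 CPM, in LP replicate 2.

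Gnrhr was near the limit of this depth, and no week was separated from LP. It was read in 17 of the 54 libraries with 67 summed counts, of which its highest isoform held 24 in 14 libraries. The 37 libraries at 0 had a median total of 70653 counts and the 17 others 170549, and 6 of the 17 libraries with at least 100000 counts were at 0. Of the libraries in which Gnrhr was read, 6 were of replicate 2 and 5 of replicate 3, the deepest replicate numbers. A count of 0 allows up to between 12.9 and 81.9 CPM in these libraries.

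In LP, Gnrhr was at 0 in 4 of 6 libraries, at 30.5 CPM in replicate 1 and at 81.6 CPM in replicate 2 (18.7 ± 33.1, SD, n = 6). Without LP replicate 2 the mean was 6.10 ± 13.6 CPM (n = 5). The means of the SP weeks were between 2.35 ± 5.77 CPM at 32 weeks, where 1 of 6 libraries held a single count, and 9.05 ± 10.4 CPM at 20 weeks, where 3 of 6 were read. Elsewhere in SP it was read in 1 or 2 of 6 libraries. The median was 0 in LP and in every SP week but 20 weeks (6.42 CPM), and the exact permutation p against LP was between 0.455 and 0.727.

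The log2 fold change of Gnrhr against LP was -2.0 (SE 0.93) in early, -1.41 (SE 0.81) in mid and -1.81 (SE 0.80) in late SP, and the adjusted p (edgeR) was 0.644, 0.719 and 0.601. Without replicate 2 of every group these became -0.32, -0.34 and -1.26. With other replicate numbers left out in turn, they reached -3.53 in early, -2.10 in mid and -2.38 in late SP. The smallest adjusted p among these fits was 0.138 (edgeR), in early SP without replicate 3. On the highest isoform, pooled levels were 9.14 CPM in LP (95% exact Poisson interval 2.97 to 21.3, 5 counts) and 2.43 CPM in late SP (0.79 to 5.66, 5 counts), so the intervals overlapped.

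**Figure D3:**
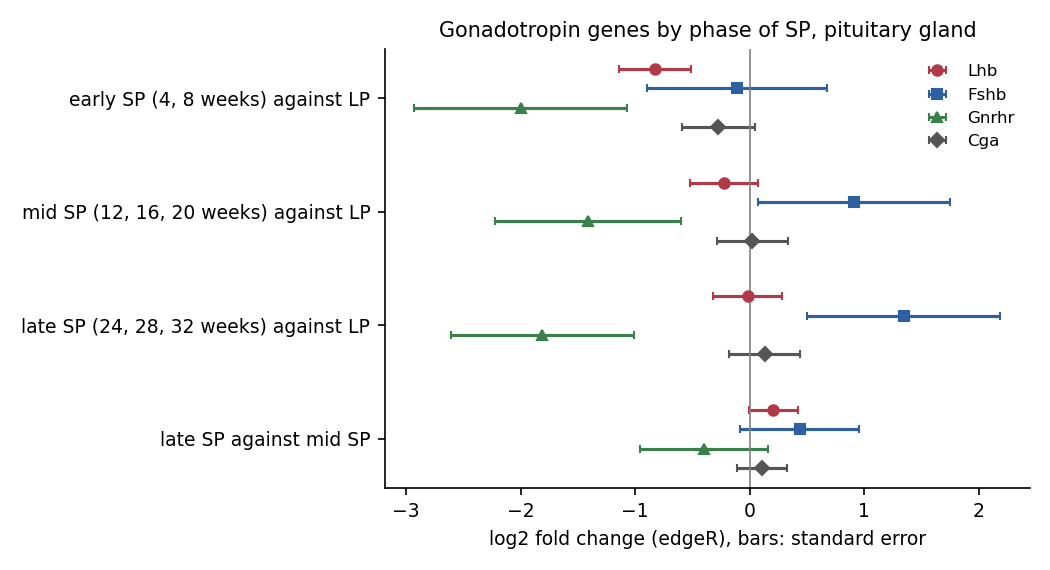
Log2 fold changes of Lhb, Fshb, Gnrhr and Cga between phases in the pituitary gland, from the fit across all genes; points are estimates and bars standard errors. The estimate of Lhb is -0.82 in early SP and near 0 in late SP, and none of the points passed an FDR of 0.1.

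Cga, the shared alpha subunit, was read in 54 of 54 libraries and no week was separated from LP. It ran from 1122 through 1568 to 3207 CPM in LP (1812 ± 733, SD, n = 6) and from 1001 through 1160 to 1878 CPM at 8 weeks (1274 ± 328), its lowest group, with an exact permutation p of 0.0931. The highest group was 16 weeks (2220 ± 742 CPM). The exact p at the other 7 weeks was between 0.368 and 0.939. Its log2 fold change against LP was -0.27 (SE 0.32) in early, 0.02 (SE 0.31) in mid and 0.13 (SE 0.31) in late SP. The signs of the last 2 turned with the size factors of DESeq2, to -0.12 and -0.0057. The median log2 fold change of all symbols in mid SP was 0.19, and with DESeq2 -0.14.

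Where both counts are well above the 0.5 added to each, a ratio within a library does not depend on the library total. The members were therefore also set against Cga. The mean log2 ratio of Lhb to Cga (summed counts, 0.5 added to each) was 0.17 ± 0.32 in LP (SD, n = 6) and -0.39 ± 0.43 in early SP (n = 12). The difference was -0.56 (SE 0.18), with p = 0.0128 in the exact permutation test and 0.153 after BH correction over the 12 ratio comparisons. Counted on the highest isoforms, there were 59.7 Lhb counts for every 100 of Cga in LP, 38.1 at 4 weeks, 36.2 at 8 weeks, and between 42.1 at 16 weeks and 56.04 at 20 weeks in the other SP groups. The group with the lowest mean log2 ratio was 16 weeks (-0.44 ± 0.79, SD, n = 6), where 1 library held -2.04. The ratio in mid SP (-0.05 ± 0.77, n = 18) and late SP (-0.05 ± 0.41, n = 18) did not differ from LP beyond the spread (p = 0.521 and 0.236, exact permutation tests).

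Relative to Cga, Fshb and Gnrhr were not separated between phases. Fshb was at 0 in 18 libraries and Gnrhr in 37, and there the ratio was set by the 0.5 added and the Cga count. Such a ratio falls as depth rises, so these ratios are not free of the library total. The ratio of Fshb to Cga differed from LP by -0.04 (SE 0.52) in early, 0.59 (SE 0.47) in mid and 0.63 (SE 0.48) in late SP on the log2 scale. That of Gnrhr differed by -0.55 (SE 0.74), -0.64 (SE 0.74) and -1.11 (SE 0.76). The permutation p of these 6 was between 0.101 and 0.937.

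**Figure D4:**
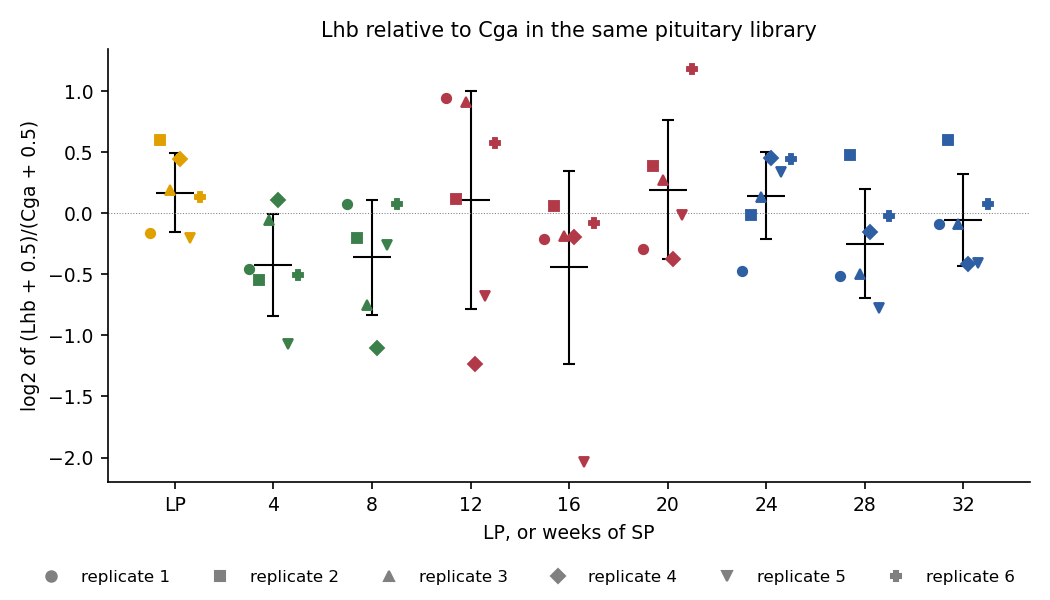
Log2 ratio of Lhb to Cga counts in each pituitary library (0.5 added to each count), by LP or weeks of SP, with the mean ± SD of 6 libraries. The LP libraries average 0.17, those at 4, 8 and 16 weeks -0.42, -0.36 and -0.44, and the spread is widest at 12 and 16 weeks.

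Across the 54 libraries, Lhb and Cga varied together. Pearson's r of log2 CPM was 0.50 (permutation p = 0.00013, BH-corrected over 3 relations 0.00039) and Spearman's rho 0.57 (p = 1e-05, the smallest that 100000 permutations can give). Without the 2 libraries farthest from the median of Cga, r was 0.53, and on values centred on their group 0.47. For Fshb, r was 0.33 (p = 0.013, corrected 0.0195), rho 0.32 (p = 0.0205), r without the 2 farthest libraries 0.32 and r on centred values 0.21. For Gnrhr, r was 0.17 (p = 0.228), rho 0.23 (p = 0.1), and r was 0.13 without the 2 farthest libraries. The libraries share depth and replicate number, and with size factors of DESeq2 the 3 values of r were 0.33, 0.19 and -0.06.

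Among the 4335 symbols read in at least 27 libraries, Cga ranked sixth in likeness to Lhb over the 54 libraries. The 5 with a higher Pearson's r were Sgta (0.58, a co-chaperone), Rpl13a (0.56, a ribosomal protein), Atp6v1h (0.54, a subunit of the vacuolar proton pump), Resp18 (0.53, an endocrine secretory protein) and Gatad2a (0.50). Fshb ranked 1075 with an r of 0.24. The symbols most like Fshb were Ddx6 (0.58, an RNA helicase), Pdia6 (0.52, a protein disulphide isomerase), Zc3h15 (0.52), Psmc3 (0.51, a proteasome subunit) and Pam (0.51, the enzyme that amidates peptide hormones). Those most like Cga were Gm5814 (0.65), Mrfap1 (0.65), Cd81 (0.60, a tetraspanin), Eef1g (0.59, a translation factor) and Mtln (0.59, a mitochondrial micropeptide), and Lhb ranked 42. Gnrhr was read in too few libraries to be ranked.

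Most of the genes known to act on these hormones were sparsely read. Of 69 genes in 5 pathway lists, all had a row and 25 were read in at least 27 libraries, and 1 passed an FDR of 0.1 in any of the 5 tests. This was Acvr2b, an activin type II receptor, in the F-test over the 9 groups (edgeR adjusted p = 0.0227), where 9.56% of all symbols passed. Acvr2b was read in 5 libraries, with 25 of its 36 counts in replicate 2 at 28 weeks and 8 in replicate 5 at 16 weeks.

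Of 14 transcription factors of gonadotropes, 0 passed in any test (edgeR), and the unadjusted F-test p was below 0.05 for 2, beside 17.7% of all symbols. DESeq2 called at most 2 of all symbols in any of the 5 tests. Gata2, which binds gonadotropin gene promoters, held 17.5 ± 21.1 CPM in LP (SD, n = 6), 4.35 ± 8.67 in early SP (n = 12), 25.2 ± 21.2 in mid SP and 11.9 ± 16.1 in late SP (n = 18 each). Its adjusted p over the 9 groups was 0.245 (edgeR). Nr0b1, a repressor of steroidogenic factor 1, was read in 9 libraries (adjusted p over the groups 0.25, edgeR). The median log2 fold change of the list against LP in early SP was 0.10, beside 0 over all symbols.

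Of 24 genes of GnRH receptor signalling, 0 passed in any test (edgeR), and the unadjusted F-test p was below 0.05 for 4, a share close to the 17.7% of all symbols. Plcb1, a phospholipase C, was listed at 0 in every LP library and held 6.59 ± 11.4 CPM in mid SP. Its adjusted p (edgeR) was 0.102 over the 9 groups and 0.481 for mid SP against LP. Cacna1d, an L-type calcium channel, held 3.67 ± 8.98 CPM in LP and 72.9 ± 222 in early SP. For Cacna1d the adjusted p (edgeR) was 0.127 over the 9 groups and 0.644 for early SP against LP. The median log2 fold change of this list was 0.57 in early, 0.47 in mid and 0.48 in late SP, beside 0, 0.19 and 0 over all symbols. Plcb3, Prkca, Jun, Atf3, Dusp1 and Rgs2 were, like Plcb1, at 0 in every LP library. Such genes can have no fold change below 0, and their part in the median was not tested.

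The activin, inhibin and follistatin list, which acts on Fshb, had 16 genes. In early, mid and late SP against LP, 0 passed (edgeR), and the unadjusted p was below 0.05 for 2, 2 and 3, beside 6.9%, 6.76% and 6.45% of all symbols. Its median log2 fold change was -0.06 in early, 0.24 in mid and -0.09 in late SP. Of 6 gonadal steroid receptors and coactivators, 0 passed in any test (edgeR), and the unadjusted F-test p was below 0.05 for 0. Pgr, the progesterone receptor, and Esr1, an oestrogen receptor, had the smallest F-test p, with adjusted values of 0.505 and 0.841. Of 9 genes of hormone secretion, 0 passed (edgeR), and the unadjusted F-test p was below 0.05 for 0. Pcsk1, a prohormone convertase, and Rab3a, a vesicle GTPase, had adjusted p of 0.534 and 0.97.

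Of the markers of other cells, Prl was the 1 that passed in early SP against LP (edgeR). Prl, the lactotroph hormone, held 12470 ± 3742 CPM in LP (SD, n = 6), 1311 ± 1097 in early SP (n = 12), 878 ± 554 in mid SP and 8908 ± 3675 in late SP (n = 18 each). It was lower than LP in early and mid SP and higher in late than in mid SP by log2 fold changes of -3.70 (SE 0.30), -3.91 (SE 0.27) and 3.37 (SE 0.23), each past an FDR of 0.1 in edgeR's test. By mean, Prl was lowest in mid SP, and Lhb in early SP. Prl ran from 298 to 3368 CPM in early and from 217 to 2286 CPM in mid SP, so the ranges overlapped. Early and mid SP were not tested against each other for either gene. The summed level of the 3 somatotroph markers ran from 28053 to 53333 CPM in LP and from 29674 to 68182 in early SP. That of the 5 blood markers ran from 189.6 to 506 CPM in LP and from 260.2 to 1337 in early SP. That of the 5 markers of corticotrophs and melanotrophs ran from 6445 to 17544 CPM in LP and from 3413 to 18816 in early SP. The part of these markers in the level of Lhb was not tested. Tshb, the TSH beta subunit that pairs with Cga in thyrotrophs, was read in 43 libraries, with 122 ± 245 CPM in LP (n = 6) and 109.6 ± 112 in early SP (n = 12), and its adjusted p over the groups was 0.97 (edgeR). LP replicate 6 held 616 CPM of Tshb, and without it the LP mean was 23.2 ± 43.8 CPM (n = 5). The log2 fold change of Tshb in early SP was -0.10 (SE 0.83), and 2.05 (SE 0.89, edgeR adjusted p = 0.631) without replicate 6 of every group.

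In the mediobasal hypothalamus (MBH) of the same groups, taken as punches of brain sections, Lhb, Fshb and Gnrhr were rare, whereas Cga was read in 53 libraries and differed between groups. MBH libraries are deeper than those of the gland (median 1422834 counts), but their lowest total was 5996. Lhb was read in 36 of 54 MBH libraries, Fshb in 8 (14 counts) and Gnrhr in 8 (9 counts). Lhb held 42.9 ± 80.6 CPM in LP (n = 6), with 205.2 CPM in LP replicate 3, and 5.15 ± 13.97 in early SP (SD, n = 12), 8.40 ± 10.7 in mid and 8.25 ± 13.8 in late SP (n = 18 each). The adjusted p over the 9 groups was 0.285 for Lhb, 0.245 for Fshb and 1 for Gnrhr in edgeR's F-test, in which 0.442% of 20156 symbols passed.

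Cga in the MBH ran from 365 to 1384 CPM in the 6 LP libraries, whereas 47 of 48 SP libraries held 345.5 CPM or less (adjusted p over the groups 0.0439, edgeR). The exception, replicate 2 at 28 weeks, held 829.9 CPM, and also the highest Gh and Prl of the MBH libraries, 113.4 and 533 CPM. The call for Cga was lost when replicate 1, 3, 4, 5 or 6 was left out, with an adjusted p of up to 0.417. It was kept in 8 of 14 alternative settings, with an adjusted p of 0.00126 in DESeq2 and 0.0153 with replicate number as a block (edgeR). Tshb, the other subunit of TSH, was also higher in LP than in SP in the MBH. It ran from 104.3 to 693 CPM in LP and reached at most 40.4 CPM in the 48 SP libraries, 20 of which were at 0 (adjusted p over the groups 3.55e-12, edgeR). The relation of Tshb to Cga from library to library was not tested. The part of thyrotroph transcripts in the level of Cga was not tested.

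**Figure D5:**
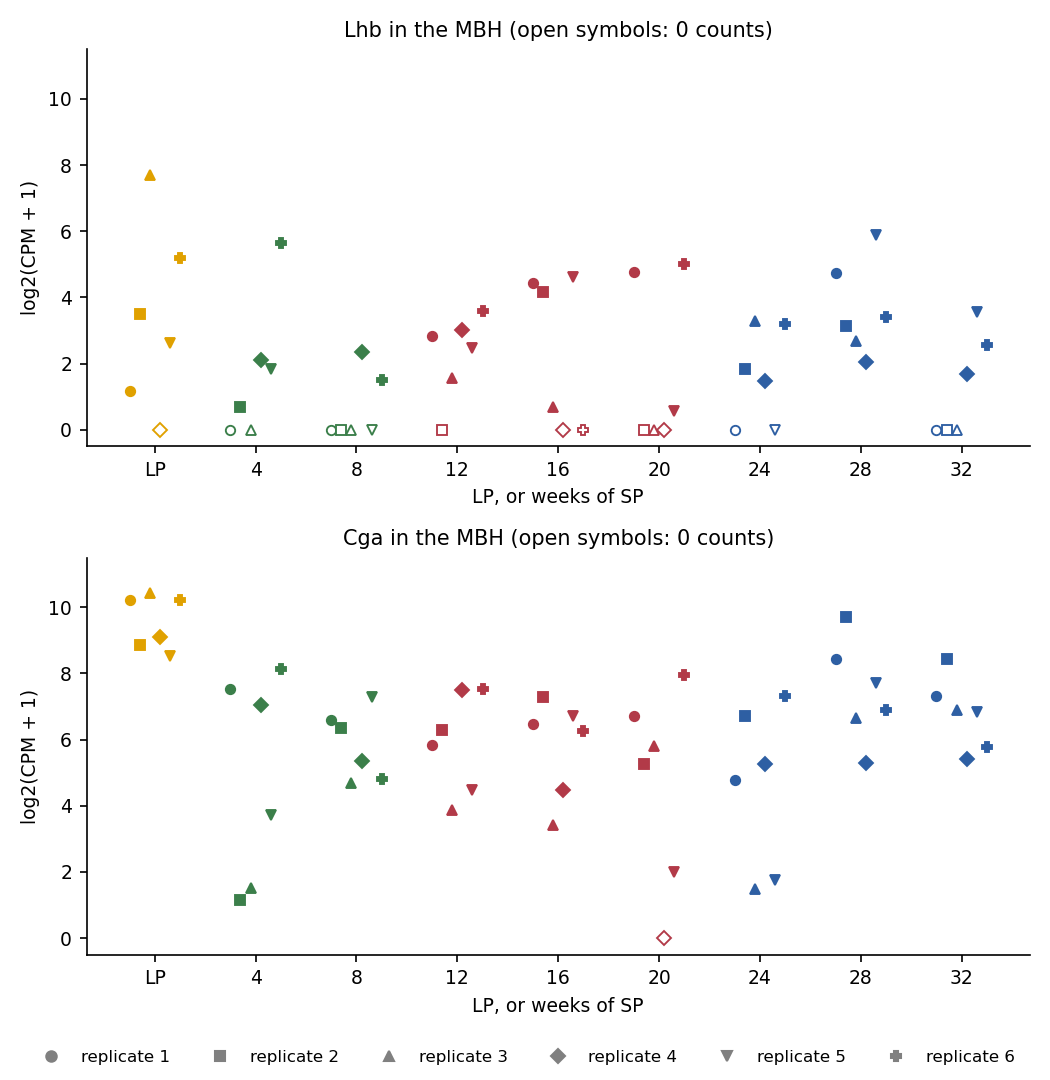
Lhb (top) and Cga (bottom) in each MBH library as log2(CPM + 1), by LP or weeks of SP; open symbols are libraries with 0 counts. The 6 LP libraries hold between 365 and 1384 CPM of Cga, and 1 SP library, at 28 weeks, lies within that range.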

How the data were processed

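RNA from the pituitary gland, MBH, DMH and PVN was sequenced on the nanopore platform. The labels name a PCR-cDNA kit for all libraries, whereas the study's methods name a direct cDNA kit for the pituitary gland. The authors aligned reads to the mouse genome (GRCm39) with Minimap2, estimated counts with Salmon and removed low isoforms with EdgeR, so reads of hamster transcripts that differ from the mouse may be lost. Each value as deposited is an estimated count of an isoform in a library, not normalized, and 97.6% of the pituitary values above 0 were whole (tolerance 1e-06). Tables that were deposited by tissue were analysed separately.

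Counts were summed over isoforms by gene symbol and rounded. Tests used edgeR 4.0.16 under R 4.3.3 (quasi-likelihood F-test in the form of edgeR 3, TMM, all 54 libraries, BH-corrected FDR below 0.1) over all symbols, with phases as contrasts of group means. SEs were taken from the F statistic. Mean CPM of each week was set against LP in an exact permutation test (2-sided), and phases by exact tests or 100000 resamples of the log2 ratio to Cga. Correlations used a prior count of 2. The statistics were run in Python 3.11.15 with scipy 1.17.1. The edgeR fit was also run on simulated data, with large changes in well-read genes and in mid SP only. That run does not bear on sparsely read genes or on a change as small as that of Lhb in early SP.

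The members and lists were chosen with earlier results of these data known. Named genes are the members, Cga and Tshb, the genes of each pathway list past an FDR of 0.1 (else the 2 with the smallest F-test p), and the 5 symbols most like each member read in at least 27 libraries; Prl, Gh and marker sums are given as checks. Alternatives were DESeq2 1.42.0 and its size factors, library totals without TMM, Lars2 left out, filterByExpr, the method of edgeR 4, the highest isoform, replicate number as a block, an FDR of 0.05, libraries under 50000 counts left out, other pseudocounts, and each replicate number left out in turn. The comparison of late with early SP, its alternatives, and values without single LP libraries were added after seeing the data. No 2 libraries of a group held the same counts. Hamsters were separate animals by the study's design, and the labels give replicate numbers no other meaning. Deviations of same-numbered libraries from their group means correlated with a mean r of 0.09 (216 pairs, 75 above 0.1). For libraries of other numbers and groups the mean r was -0.02 (1080 pairs). The permutation tests did not take replicate number into account. Limits of a count of 0 and Poisson intervals cover counting error only. No reference sequence was used here.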

Additional observations from a re-analysis of the deposited data

Results flagged for a closer look

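In 8 of the 36 groups of 6 libraries (Lhb, Fshb, Gnrhr and Cga in 9 groups) the highest or lowest library stood apart from the rest by Dixon's criterion. Chance does so in about 1 in 20 groups of normally distributed values, a rate that does not hold for counts that are mostly 0. A library that alone holds a count is flagged whatever its level, so the 8 flags cannot be set against that rate. Lhb was low in replicate 1 at 24 weeks, with 829.5 CPM against 2108 in the next library, and high in replicate 2 at 28 weeks, with 3330.4 CPM against 1736. Fshb was high in replicate 4 at 8 weeks, with 25.6 CPM against 8.43. The other 5 were high values of Gnrhr, a gene at 0 in most libraries: 81.6 CPM in LP replicate 2 (next 30.5), 22.1 in replicate 3 at 8 weeks (next 0), 33.9 in replicate 3 at 16 weeks (next 8.47), 43.5 in replicate 2 at 24 weeks (next 7.86) and 14.1 in replicate 6 at 32 weeks (next 0).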

How the results depend on the processing

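For Lhb, Fshb, Gnrhr and Cga in the pituitary gland, no alternative fit that kept the gene moved an adjusted p to the other side of 0.1 (filterByExpr removed Fshb and Gnrhr), and Lhb kept its direction in early SP in all 15 (log2 fold change -0.99 to -0.67; unadjusted p 0.000442 to 0.0744). Depth limits Fshb and Gnrhr, which are at 0 in 18 and 37 libraries. Where a value below changed, the cause was not tested.

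Counts of symbols called depended on the method. Over the 9 groups the 2149 calls became 1351 at an FDR of 0.05, 6 with filterByExpr, 2 with DESeq2 and 33 on the highest isoform (1687 to 2531 without single replicate numbers). The 19 calls of early SP became 1 at an FDR of 0.05, with DESeq2 size factors, with filterByExpr and with DESeq2, 5 without TMM, 300 with edgeR 4, 4 on the highest isoform and 2 without libraries under 50000 counts (10 to 168 without replicate numbers). The 99 of mid SP became 2 with filterByExpr, 291 with edgeR 4, 1 with DESeq2 and 9 on the highest isoform (91 to 259). The 140 of late SP became 84 at an FDR of 0.05, 332 with edgeR 4, and 0 with filterByExpr, DESeq2 and the highest isoform (93, 160 and 917 at an unadjusted p below 0.05; 116 to 277 without replicate numbers). The 68 of late against mid SP became 19, 4 with filterByExpr, 286 with edgeR 4, 1 with DESeq2 and 5 on the highest isoform (47 to 185). In the MBH 89 became 43 at an FDR of 0.05, 248 without TMM, 4 with filterByExpr and 17 with DESeq2 (7 to 30 without replicate numbers).

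With replicate number as a block (replicate block), calls became 243 in early, 214 in mid and 254 in late SP, 318 for late against mid SP and 22 in the MBH, and no call of the 4 genes in the gland changed. Same-numbered libraries did not all deviate together. Even so, 42 of 54 were on average more alike to libraries of their own number than to those of any other number. This is a hint from the data and not the design.

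The directions of several differences turned. The log2 fold change of Cga in mid SP was -0.12 with DESeq2 size factors, -0.11 with DESeq2, -0.083 with filterByExpr and -0.081 without shallow libraries (-0.072 to 0.13 without replicate numbers), and in late SP -0.0057 and -0.0015 with DESeq2 size factors and DESeq2. Lhb in late SP was 0.016 on the highest isoform (-0.14 to 0.090 without replicate numbers). Fshb in early SP ran from -0.80 to 0.57 and Gnrhr in late against mid SP from -0.93 to 0.30 without replicate numbers. Weeks with an exact p below 0.05 numbered 1 to 2 for Lhb, 1 to 2 for Fshb and 0 to 1 for Cga without replicate numbers, and 1 for Fshb with DESeq2 size factors, without TMM or without shallow libraries.

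For ratios to Cga, values without single replicate numbers ran from -0.67 to -0.48 for Lhb in early SP (p = 0.0533 without replicate 2, permutation), -0.13 to 0.10 for Lhb in late against mid SP (0.020 without shallow libraries), -0.21 to 0.22 for Fshb in early SP (0.060 with a pseudocount of 1), 0.27 to 0.85 for Fshb in mid SP, -0.14 to 0.32 for Fshb in late against mid SP, -0.97 to 0.17 for Gnrhr in early SP and -1.39 to -0.72 for Gnrhr in late SP (-1.0 on the highest isoform, permutation p = 0.0252). The r with Cga was 0.33 for Lhb, 0.19 for Fshb and -0.055 for Gnrhr with DESeq2 size factors, and for Gnrhr -0.0019 without TMM and 0.31 on the highest isoform (without replicate numbers 0.44 to 0.60, 0.20 to 0.51 and 0.10 to 0.26).

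The added ratio of late to early SP, a comparison picked from the same values, was 1.46 to 1.85 for Lhb over its alternatives. The permutation p of Lhb was below 0.05 in 11 of 11. Without replicate numbers the ratio was 1.55 to 1.85 for Lhb, 2.49 to 6.44 for Fshb, 0.511 to 4.44 for Gnrhr (0.419 on the highest isoform) and 1.25 to 1.37 for Cga (1.16 with DESeq2 size factors and 1.17 without TMM). In the MBH the adjusted p of Cga was 0.254 with filterByExpr (edgeR). That of Lhb was 1.84e-21 on the highest isoform (edgeR), a fit that gave 6.34e-129 for Cga, and stayed above 0.1 in the other 13 of 14 alternatives. The largest highest-isoform counts of Lhb were 78 in replicate 6 at 4 weeks and 60 in LP replicate 3.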

Other observations

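Outside the gland, Lhb was above 30 CPM in 5 MBH libraries (LP replicates 3 and 6, replicate 6 at 4 and at 20 weeks, and replicate 5 at 28 weeks), which were picked for their Lhb after it had been seen and so carry no test. Gnrhr was read in 5 of these 5, at 0.197 to 0.870 CPM and with 1 or 2 counts each, and Cga held 208.9 to 1384 CPM. Their totals were 1727983 to 6699792 counts, beside a median of 1422834 over the MBH libraries. Gnrhr ran from 0 to 0.462 CPM (median 0) and Cga from 0 to 1199.9 CPM (median 80.3) in the other 49. The anterior pituitary hormone genes Gh and Prl held 0 to 10.4 CPM (median 3.48) and 0 to 15.7 CPM (median 0) in the same libraries. In the other 49 MBH libraries Gh ran from 0 to 113.4 CPM (median 0) and Prl from 0 to 533 CPM (median 0). In the pituitary gland, by comparison, mean Gh was 41937 CPM and mean Prl 12470 CPM in LP.

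In the dorsomedial hypothalamus (DMH) Lhb was read in 7 of 54 libraries, Gnrhr in 9 and Cga in 1. In the paraventricular nucleus (PVN) Lhb was read in 15 of 54 libraries with 27 counts. Fshb has no row in the tables of the DMH and PVN, and Gnrhr and Cga have none in that of the PVN. The isoform identifiers of Lhb and Tshb in the PVN are not among those of the other tissues, and the annotation behind them is not given. PVN counts and missing rows may therefore not be comparable with those of the other tissues.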
